A study of Mus musculus with 20 samples.

Results

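The rod phototransduction genes are 9 genes whose proteins carry the light response inside a rod, the photoreceptor of dim light: Gnat1, Gnb1 and Gngt1 (the subunits of rod transducin), Pde6a, Pde6b and Pde6g (the subunits of the rod phosphodiesterase), Cnga1 (a subunit of the cation channel opened by cyclic GMP), and Sag and Rcvrn (arrestin and recoverin, which bring the response to an end or tune it). They were chosen by name, and all 9 are among the 23260 genes of the deposited count table. Other genes of the pathway were kept apart as a separate list.

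In the dark, cyclic GMP holds the channel of the rod outer segment open. Light leads to the activation of transducin, its alpha subunit relieves the phosphodiesterase of the inhibitory gamma subunit Pde6g, the catalytic subunits Pde6a and Pde6b break down cyclic GMP, and the channel closes. Arrestin then helps to end the response, and recoverin, a calcium-binding protein, tunes how long it lasts. Mouse rods leave the cell cycle around birth and in the days after it, and switch on this machinery while the outer segment is still forming.

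The series holds 20 single-cell RNA libraries of retinal explants from wild-type CD1 mice, 79009 cells in all, each with a deposited cell type. Explants were electroporated with a GFP control construct, with a MEIS1 construct, with a MEIS2 construct or with an equal mixture of both (combination), where MEIS1 and MEIS2 are related homeobox transcription factors. At each of the ages P2 and P5 (postnatal days 2 and 5) there are 4 control libraries and 2 libraries of each MEIS group, and every explant, controls included, carried a GFP construct and was sorted for GFP. The design text names pCAGIG vectors, whose CAG promoter acts in most cells, and treatment of 2 or 5 days, so age and time in culture cannot be told apart, and electroporated cells are a sample of the retina and not the whole of it. The labels do not say whether replicates came from separate litters or cultures, so the p-values below measure the spread between these libraries.

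The labels disagree with each other in places. The design text names NR2F1 and NR2F2 in place of MEIS1 and MEIS2, the treatment tag gives MEIS1 for the P2 libraries titled MEIS2 and MEIS2 for the P5 libraries titled MEIS1, and the start of the cell barcodes equals the title in 10 of the 20 libraries. Titles and the sample column were followed. The construct genes in rods followed the titles. Meis1 stood at 2617 and 2280 CPM (UMIs of a gene scaled to the same total in every library) in the 2 P2 MEIS1 libraries against 403 and 426 in P2 MEIS2 and 173 to 467 in P2 controls. At P5, Meis1 stood at 957 and 994.9 CPM in MEIS1 against 466 and 293 in MEIS2 and 237 to 396 in controls. Meis2 stood at 2873 and 2786 CPM in P2 MEIS2 against 1188 to 1507 in P2 controls, and at 951 and 1111 in P5 MEIS2 against 551 to 959 in P5 controls, so that at P5 the lower MEIS2 library lay just inside the range of the controls. In the combination both genes lay above every control of their age.

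Libraries held 1625 to 17739 cells and 2376875 to 141540352 unique molecular identifiers (UMIs, 1 per captured transcript). Rods numbered 38650, with 518 to 6928 in a library. A few libraries stood apart. P2 MEIS2 replicate 2 had 575718 UMIs in 518 rods, a median of 836 per rod against 1728 or more elsewhere, and its amacrine cells held Sag at 248 CPM, almost the 280 CPM of its rods. P5 control 1, P5 MEIS1 1 and P5 MEIS2 1 had rods of low depth (medians of 2463, 2422 and 3179 UMIs) with 10.1%, 11.7% and 6.56% mitochondrial UMIs, and their amacrine cells held the members at the highest levels of all P5 libraries. No pair of libraries shared more than 30 cell barcodes, and none shared more than 0.876% of the barcodes of the smaller library. Results are given with and without these libraries where this changes them. The deposited type Rods held the transcription factors that mark rods, with Nrl at 278 to 345 CPM in P2 control rods and 451 to 712 at P5, and Nr2e3 at 277 to 673 and 998 to 1704. Types were assigned by the authors from these same cells, so a difference between rods and another type is a description.

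Promoters are shown first because the members are genes that photoreceptor transcription factors are known to switch on together. The RefSeq table (GRCm38.p6, 250 bases before to 50 after a start) holds 5 of the 9 members, and 3 of these are printed, those with the highest (Gnb1) and the lowest (Cnga1) P2 level in rods relative to P5 and the most abundant (Sag), 5′ to 3′ on the strand of the gene. Capitals mark matches on either strand to TAATCC, the letters preferred by CRX and OTX2, and to TGCTGA, the core of the NRL element. The Gnb1 window lies at chr4:155491111-155491410 (plus strand), that of Sag at chr1:87803430-87803729 (plus strand) and that of Cnga1 at chr5:72642703-72643002 (minus strand).
Gnb1: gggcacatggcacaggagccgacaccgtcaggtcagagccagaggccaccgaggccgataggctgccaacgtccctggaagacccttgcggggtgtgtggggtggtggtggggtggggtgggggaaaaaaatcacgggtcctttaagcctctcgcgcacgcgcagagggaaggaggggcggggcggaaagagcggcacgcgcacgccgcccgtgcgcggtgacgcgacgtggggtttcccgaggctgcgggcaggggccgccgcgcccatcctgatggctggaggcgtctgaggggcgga
Sag: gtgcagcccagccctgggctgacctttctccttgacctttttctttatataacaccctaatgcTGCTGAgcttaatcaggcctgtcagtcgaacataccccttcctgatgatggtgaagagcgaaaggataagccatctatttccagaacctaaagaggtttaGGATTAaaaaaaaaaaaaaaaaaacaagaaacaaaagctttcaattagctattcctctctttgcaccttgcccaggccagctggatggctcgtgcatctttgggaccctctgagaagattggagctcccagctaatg
Cnga1: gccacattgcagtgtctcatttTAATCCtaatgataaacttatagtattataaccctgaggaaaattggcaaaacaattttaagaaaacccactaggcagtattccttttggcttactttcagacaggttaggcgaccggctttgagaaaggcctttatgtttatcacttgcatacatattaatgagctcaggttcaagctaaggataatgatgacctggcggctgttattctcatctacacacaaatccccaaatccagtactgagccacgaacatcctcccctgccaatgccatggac

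Sag holds both motifs, with the first bases of the matches at -187 (TGCTGA) and -87 (GGATTA, the reverse complement of TAATCC) from the start, so they share no base. Cnga1 holds TAATCC at -228 and Gngt1 holds its reverse complement at -44. Pde6b holds TGCTGA at -8. These offsets count from RefSeq starts, which differ for Cnga1, Gngt1 and Pde6b from the GENCODE gene positions given below. The whole Cnga1 window lies inside the GENCODE gene, which begins at 72644275 on the minus strand. The Gngt1 window begins at 3993758 and the GENCODE gene at 3993792, so the Gngt1 match lies inside that gene. The Gnb1 window holds neither and is 70.3% G and C, against 41.3% to 51.3% in the other 4 windows. Of 32851 windows in the table, 7.06% hold TAATCC, 19.5% hold TGCTGA and 1.36% hold both, on either strand. A match describes the letters of the window and is no sign of binding, and a window without one says nothing of the factor.

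Between P2 and P5, 8 of the 9 genes rose in control rods, by log2 fold changes from 1.74 (Gnb1) to 4.37 (Cnga1), and the ninth, Pde6a, was higher by log2 1.17 without passing the test. The test was edgeR's quasi-likelihood test on UMIs summed per library over rods, with a call at a Benjamini-Hochberg adjusted p under 0.05. Of 14786 genes tested, 7.24% were called higher. The median log2 fold change was 2.80 over the members and 0.0011 over all genes. In a sum over rods, fewer maturing rods and less RNA in each rod cannot be told apart. Levels below are CPM within the rods of a library, in the order of the control libraries 1 to 4.

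**Figure D1:**
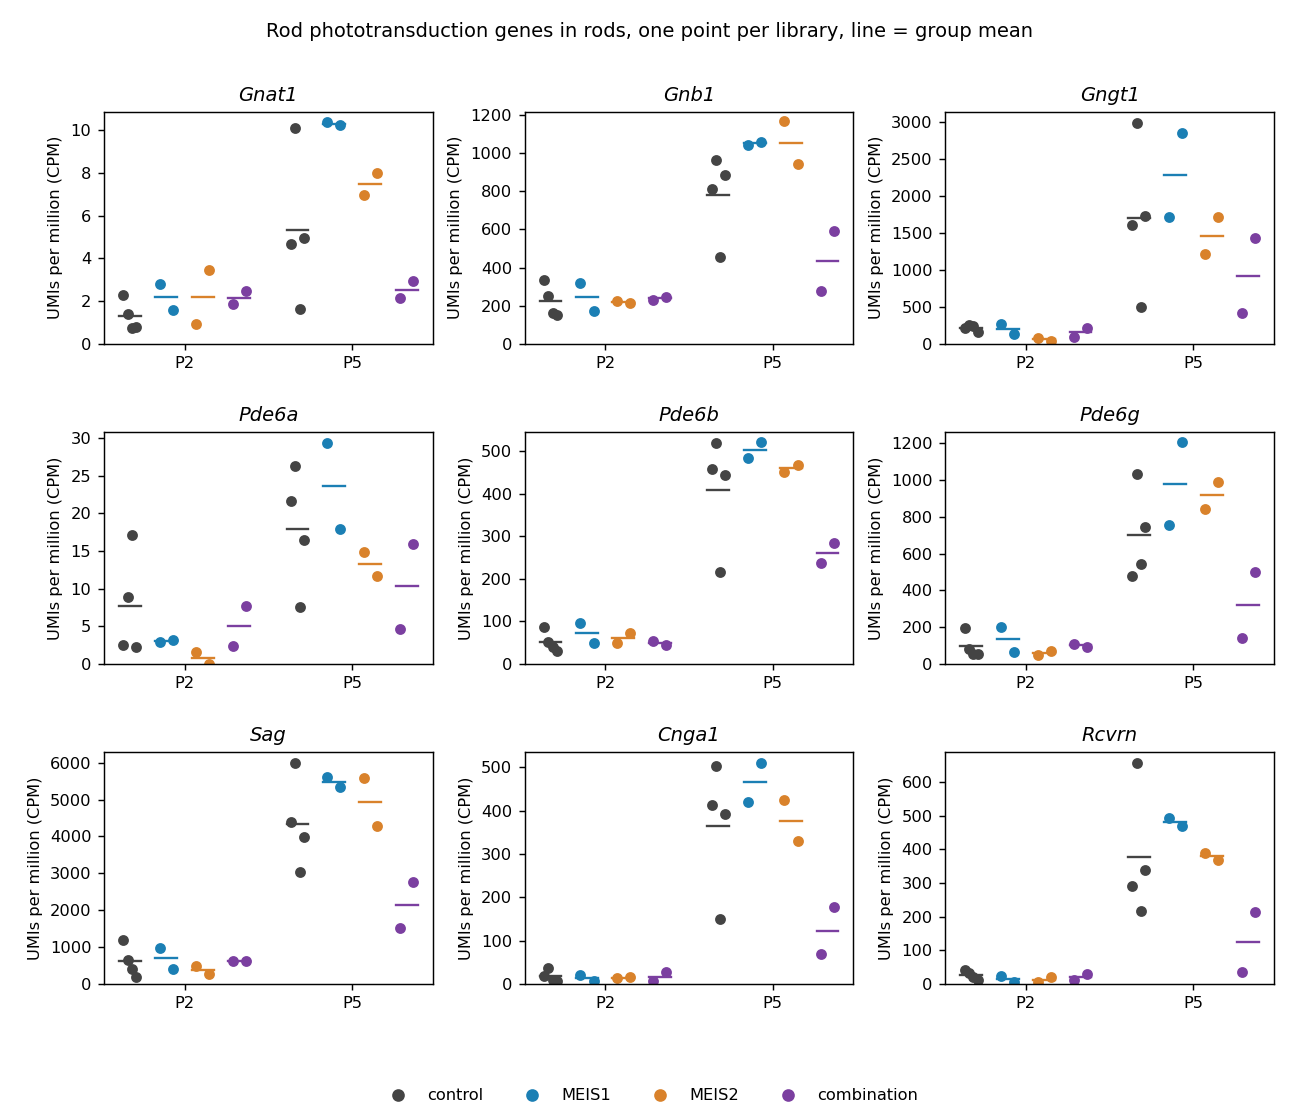
Level of each of the 9 genes in rods (CPM, linear axis from 0), 1 point per library and a line at each group mean, with the groups at P2 on the left and P5 on the right. P5 libraries lie above P2 libraries for Sag, Cnga1, Gngt1 and Pde6b in controls and in MEIS libraries alike, and for Sag the 2 P5 combination libraries (1515 and 2771 CPM) lie below the other P5 libraries.

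Of the transducin subunits, Gngt1, the gamma subunit (chromosome 6, 3993792 to 3997436, plus strand, mm10), stood at 218, 257, 238 and 154 CPM in the P2 control rods and at 1613, 2991, 500 and 1728 CPM at P5. The ranges did not overlap, and P5 control 3 was the lowest P5 library and P5 control 2 the highest. The log2 fold change was 2.90 (SE 0.49, edgeR adjusted p = 0.00123).

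Gnb1, the beta subunit (chromosome 4, 155491361 to 155559269, plus strand), is also part of G proteins in many other cells. Its levels were 334, 249, 163 and 149 CPM at P2 and 815, 964, 457 and 888 CPM at P5. These ranges too stayed apart, with a log2 fold change of 1.74 (SE 0.29, edgeR adjusted p = 0.00115), the smallest among the called members. In control progenitors and neurogenic cells its mean level was above that of Sag at both ages, and outside rods it is treated apart from the other 8.

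Gnat1, the alpha subunit that activates the phosphodiesterase (chromosome 9, 107674474 to 107679712, minus strand), was counted rarely, with 1109 UMIs in all cells. The P2 control rods held 87, 9, 4 and 6 UMIs (2.27, 1.41, 0.732 and 0.803 CPM) and the P5 control rods 74, 93, 19 and 46 (4.67, 10.1, 1.61 and 4.95 CPM). P5 control 3 fell within the P2 range, while the other 3 P5 libraries lay above it. The log2 fold change was 1.86 (SE 0.47, edgeR adjusted p = 0.0148), a call that was lost without P5 control 2 (adjusted p = 0.0726), with cells thinned to 1000 UMIs (0.221) and with only the 2 control groups in the fit (0.0556). Over all alternatives tried, the adjusted p of Gnat1 ran from 0.00199 to 0.221.

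Among the phosphodiesterase subunits, Pde6b, the catalytic beta subunit (chromosome 5, 108388391 to 108432397, plus strand), had the lowest adjusted p of the members. It stood at 87.7, 51.0, 39.2 and 30.9 CPM at P2 and at 458, 520, 217 and 445 CPM at P5. Every P5 library exceeded every P2 library by more than 2-fold, with a log2 fold change of 2.90 (SE 0.31, edgeR adjusted p = 8.87e-05).

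Pde6g, the inhibitory gamma subunit (chromosome 11, 120447605 to 120453500, minus strand), stood at 197, 81.5, 53.3 and 54.6 CPM at P2 and at 478, 1035, 544 and 745 CPM at P5. P2 control 1 was the highest at P2, and P5 control 1 the lowest at P5, so that the gap was narrowest between the libraries numbered 1. The log2 fold change was 2.80 (SE 0.46, edgeR adjusted p = 0.00103).

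Pde6a, the catalytic alpha subunit (chromosome 18, 61220315 to 61289924, plus strand), did not pass the test, and its P2 values were the most scattered. They were 2.45, 8.92, 17.2 and 2.27 CPM (94, 57, 94 and 17 UMIs), against 21.6, 26.4, 7.53 and 16.5 CPM at P5. P2 control 3 lay above 2 of the P5 libraries, and in that library Pde6a took 2.21% of the UMIs of the 8 genes other than Gnb1 in rods but 9.74% in progenitors and 14.3% in neurogenic cells. The log2 fold change was 1.17 (95% interval -0.07 to 2.41, edgeR adjusted p = 0.207), and without P2 control 3 it was 2.01 (adjusted p = 0.0382). Pde6a overlaps a ribosomal protein pseudogene, and whether reads of the 2 were told apart was not tested.

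Cnga1, the channel subunit (chromosome 5, 72603696 to 72644275, minus strand), changed most. It stood at 17.6, 36.9, 8.05 and 6.15 CPM at P2 and at 414, 502, 150 and 393 CPM at P5. The lowest P5 library held 4 times the level of the highest P2 library. The log2 fold change was 4.37 (SE 0.56, edgeR adjusted p = 0.000309), a 20.7-fold difference. Cnga1 spans a pseudogene as well, as does Gnb1.

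Of the 2 members that end or tune the response, Sag (chromosome 1, 87803680 to 87845158, plus strand) was the most abundant member, with 523101 UMIs in all cells. It stood at 1202, 656, 402 and 188 CPM in P2 control rods, a spread of over 6-fold within the group, and at 4390, 6001, 3024 and 3982 CPM at P5. The groups did not overlap, and the log2 fold change was 2.79 (SE 0.46, edgeR adjusted p = 0.00104).

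Rcvrn (chromosome 11, 67695326 to 67703333, plus strand) lies inside Glp2r, a gene on the other strand that was itself counted with 1311 UMIs in all cells against 39207 of Rcvrn. Its levels were 41.8, 32.4, 19.6 and 10.0 CPM at P2 and 292, 656, 216 and 338 CPM at P5. All 4 P5 libraries lay above the P2 range, with a log2 fold change of 3.79 (SE 0.57, edgeR adjusted p = 0.000702).

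The 12 MEIS libraries share no library with the controls, and in them all 9 members rose from P2 to P5, among 11.6% of genes called higher. The median log2 fold change was 2.87 over the members and 0.01 over all genes. Rcvrn (4.42, SE 0.51) and Cnga1 (4.30, SE 0.47) changed most, followed by Gngt1 (3.57, SE 0.41), with edgeR adjusted p-values of 2.56e-05, 2.09e-05 and 2.77e-05. Pde6a was called here with a log2 fold change of 2.47 (SE 0.56, edgeR adjusted p = 0.0042), from 0 to 7.73 CPM at P2 to 4.58 to 29.4 at P5. The 0 was in P2 MEIS2 2, whose depth allows up to 5.21 CPM at a count of 0. The call of Gnat1 (1.70, SE 0.42, edgeR adjusted p = 0.0075) was lost without P2 MEIS2 1 (0.0656). Without the 4 P5 libraries numbered 1, which include the deepest and the most mitochondrial ones, 8 members were called higher in controls and 9 in MEIS libraries, among 4.83% and 7.47% of all genes. Without P2 MEIS2 2 the counts were also 8 and 9, among 7.78% and 10.9% of all genes.

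The genes were then ordered by the P2 level as a percent of the P5 level in control rods. Cnga1 stood lowest, at 4.71% ± 3.86 (SD over 4 P2 libraries) of its mean P5 level, and Rcvrn next, at 6.92% ± 3.73. A middle group followed with Gngt1 at 12.7% ± 2.63, Pde6b at 12.7% ± 6.12, Pde6g at 13.8% ± 9.75 and Sag at 14.1% ± 10.1. Gnat1 at 24.4% ± 13.3, Gnb1 at 28.7% ± 11.01 and Pde6a at 42.9% ± 39.1 stood highest. Within each of these sets, neighbours differed by less than the larger of their SDs, so the order inside a set is not resolved. The step from Rcvrn to Gngt1 was larger than the SD of either. The distances from Rcvrn to Pde6b, Pde6g and Sag were smaller than the SDs of those genes. That from Sag to Gnat1 was smaller than the SD of Gnat1. All genes were taken in the same libraries, so these SDs do not measure the spread of a difference between 2 genes. Single libraries carried some of these values: Pde6a was at 25.3% without P2 control 3, below Gnb1, Cnga1 at 2.90% without P2 control 2, and Pde6g at 9.01% without P2 control 1. P2 neurogenic cells held 13.5% (Gnat1), 20.6% (Gnb1) and 19.5% (Pde6a) of the P5 rod level, against 0.379% to 1.49% for the other 6 genes. The values of Gnat1 and Pde6a rest on few UMIs. The 8 genes other than Gnb1 had 175 to 3257 UMIs in neurogenic cells of a P2 control. Of these Gnat1 made up 0.405% to 0.968%, and Pde6a 0.246% to 14.3%, the highest being P2 control 3. Whether a level outside rods bears on the places of these 3 genes was not tested.

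**Figure D2:**
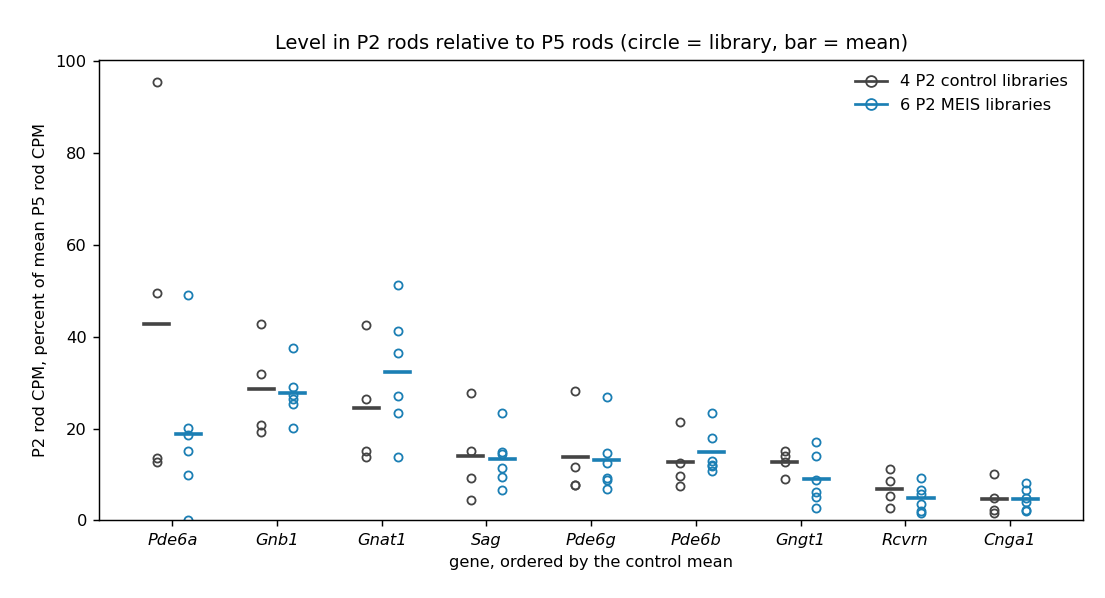
P2 level of each gene in rods as a percent of its mean P5 level, with a circle for each P2 library and a bar at the mean, for 4 control and 6 MEIS libraries. Cnga1 (4.71% in controls and 4.66% in MEIS libraries) and Rcvrn (6.92% and 4.84%) are lowest in both sets, and Pde6a has the widest spread.

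In the MEIS libraries the same 2 genes stood lowest, Cnga1 at 4.66% ± 2.40 (SD, n = 6) and Rcvrn at 4.84% ± 2.96. Gngt1 followed at 8.91% ± 5.54, a step from Rcvrn that was smaller than its SD, with Pde6g at 13.1% ± 7.33, Sag at 13.4% ± 5.82 and Pde6b at 14.8% ± 4.88. At the upper end, Pde6a moved to the third place with 18.8% ± 16.6, below Gnb1 (27.7% ± 5.72) and Gnat1 (32.2% ± 13.5). The places of the 2 rarest genes, Pde6a and Gnat1, thus differed between the sets, while those of Cnga1 and Rcvrn did not. Set against Sag in the same rods, Cnga1 gave 31.0 ± 18.6 UMIs per 1000 Sag UMIs in P2 controls and 81.6 ± 22.2 at P5 (SD, n = 4 each), and Rcvrn 46.6 ± 8.14 and 83.0 ± 19.2. Gnb1 went the other way, from 465 ± 228 to 180 ± 32.0, and Pde6b stayed near 100, at 103 ± 42.4 and 93.6 ± 18.03. By library, the values of Rcvrn at P2 and P5 stayed apart in controls (34.8 to 53.5 and 66.4 to 109). They overlapped in MEIS libraries (10.8 to 68.3 and 22.2 to 87.9), and those of Cnga1 overlapped in both sets.

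The share of rods with a UMI of a gene was also taken from single cells. Each cell was thinned to 1000 UMIs, which left out 261 P2 and 183 P5 control rods that were shallower. A Sag UMI was seen in 26.2% ± 13.3 of P2 and 77.8% ± 19.0 of P5 control rods (SD, n = 4 libraries each; 38.1% and 87.4% before thinning). For Pde6g the shares were 8.504% ± 5.96 and 40.5% ± 11.2 (16.8% and 66.6% before thinning). Cnga1 was seen in 1.80% ± 1.49 and 29.4% ± 11.8 (4.18% and 57.4%), and Rcvrn in 2.50% ± 1.58 and 21.5% ± 8.58 (5.40% and 39.7%). Single libraries carried some P2 means. The thinned share of Cnga1 was 3.80% in P2 control 2 and 0.588% to 2.07% in the other P2 controls. That of Pde6g was 17.2% in P2 control 1 and 4.48% to 7.48% in the others. At P5, P5 control 3 lay below the other controls. Its share was 51.0% for Sag against 77.7% to 92.3%, and 12.6% for Cnga1 against 30.5% to 39.7%. Of the other 5, Gnb1 was seen in 19.3% and 49.0% of thinned rods, Gngt1 in 13.7% and 57.7%, Pde6b in 5.05% and 31.6%, Pde6a in 0.861% and 1.79%, and Gnat1 in 0.161% and 0.511%.

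Amacrine cells, inhibitory neurons that do not carry this pathway, were taken as the background, since free RNA from lysed cells can enter any droplet. Free RNA itself was not measured. A Sag UMI was seen in 6.70% ± 2.81 of P2 and 20.1% ± 19.4 of P5 amacrine cells of the controls at the same thinned depth, and a Cnga1 UMI in 0.0797% ± 0.102 and 1.71% ± 2.18 (n = 4 each). At P5 the Cnga1 share was 4.56% in P5 control 1, 2.27% in P5 control 4 (2 of 88 cells) and 0 of 151 and 0 of 154 cells in the other two, which allows up to 1.99% and 1.95%. Without P5 control 1, left out after seeing the data, the P5 means were 11.01% ± 8.42 for Sag and 0.758% ± 1.31 for Cnga1 (SD, n = 3). Their median depth before thinning ran from 2824 to 7843 UMIs in the P2 controls, against 1778 to 4881 in rods, over the cells kept. The shares in rods lay above those of amacrine cells of the same library at both ages for Sag and Cnga1.

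Rods were then sorted by how many UMIs they held of 12 other photoreceptor genes (such as Nrl, Nr2e3, Prph2 and Rp1), which none of the 9 members belong to. At P2, 29.2% to 55.8% of control rods held 5 or more of these, and at P5 68.6% to 94.97%. Within that top class, Sag was seen in 50.7% ± 15.1 of P2 and 86.6% ± 10.1 of P5 rods, and Gngt1 in 27.2% ± 5.27 and 63.7% ± 16.8. Rcvrn was seen in 4.61% ± 1.86 and 23.9% ± 7.09, and Cnga1 in 3.79% ± 2.95 and 32.7% ± 10.0 (SD, n = 4 libraries each). The P2 share as a percent of the P5 share was 58.6% for Sag, 56.2% for Gnb1, 42.7% for Gngt1, 37.4% for Pde6g, 29.1% for Pde6b, 19.3% for Rcvrn and 11.6% for Cnga1, and for the rare members 49.0% for Pde6a and 31.8% for Gnat1. A share cannot pass 100%, and that of Sag was 72.8% to 95.005% in the P5 libraries, so these percents depend on abundance and are not an order of the genes. The class has no upper limit, and its median cell held 10 of these UMIs at P2 and 13 at P5.

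**Figure D3:**
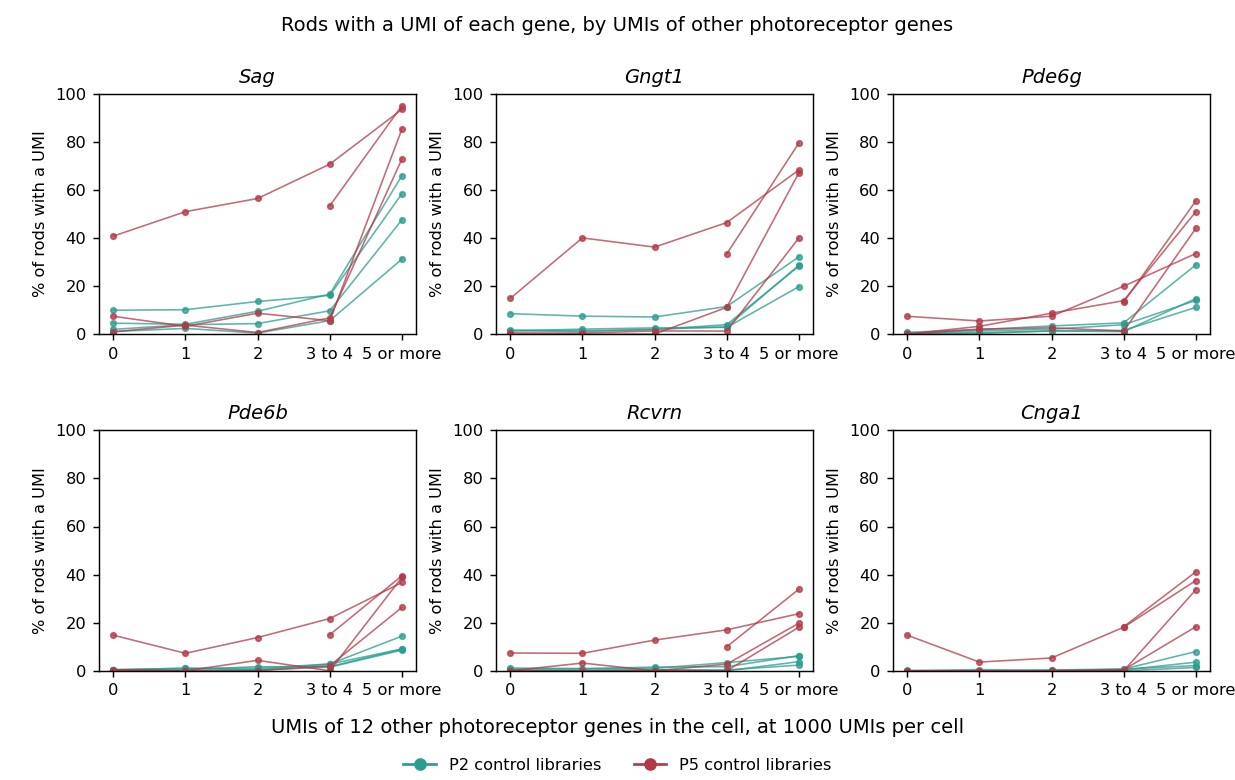
Share of rods with a UMI of each of 6 genes (percent, at 1000 UMIs per cell) against the number of UMIs of 12 other photoreceptor genes in the cell, with 1 line per control library. Cnga1 is seen in at most 8.004% in any class of P2 rods and in 18.3% to 41.1% in the top class at P5, while Sag is seen in 31.2% to 65.9% in the top class already at P2.

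Rods with none of these 12 genes were 11.3% to 21.5% of P2 control rods. Among them Sag was seen in 4.38% ± 3.99 and Cnga1 in 0.0316% ± 0.0631, with a median over libraries of 0 for Cnga1. The mean shares in amacrine cells were 6.70% and 0.0797%. These rods were picked for lacking photoreceptor UMIs and the amacrine cells were not, so the shares of the 2 types cannot be compared. Rods with none of the 12 genes were few at P5 (277). In the 3 libraries with at least 20 of them the share with Sag was 0.957%, 7.41% and, in P5 control 1, 40.7%. In that library 47.3% of amacrine cells held a Sag UMI, against 4.55% to 20.5% in the other 3 P5 controls.

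Outside rods, UMIs of the 8 members other than Gnb1 were counted in every type with 20 or more cells in a library, at summed levels that varied widely between libraries. As a percent of the rod level of the same library, their summed level in P2 controls was 9.25% ± 1.75 in progenitors, 10.6% ± 1.31 in neurogenic cells and 26.8% ± 13.2 in amacrine cells (SD, n = 4 each). These values moved with depth per cell, from 5.76% in the lowest tertile of UMIs to 16.9% in the highest in progenitors, 5.25% to 21.8% in neurogenic cells and 8.05% to 47.95% in amacrine cells. Without cells marked as doublets by Scrublet (11.2% of P2 control 1), the progenitor and neurogenic values were lower, as given with the dependence on processing. The part of doublets was not tested further. In P5 controls the summed level was 1.97% ± 1.15, 2.95% ± 1.70 and 10.1% ± 7.62, and 3.86% ± 2.73 in bipolar cells. P5 control 1 raised the means of neurogenic, amacrine and bipolar cells, at 5.51%, 21.4% and 7.88%. Bipolar cells of P5 controls 2, 3 and 4 stood at 3.12%, 1.87% and 2.56%. The amacrine and neurogenic levels of those libraries are given with the flagged results. In CPM the sums were 198 to 248 in P2 and 251 to 1645 in P5 amacrine cells of the controls, against 446 to 1769 and 4660 to 11743 in rods. Amacrine cells of P5 control 1 (1645), P5 MEIS1 1 (1440) and P5 MEIS2 1 (1457) were the highest at P5, and those of P5 MEIS1 2 (26.7) the lowest, a span of over 50-fold between libraries of 1 age.

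**Figure D4:**
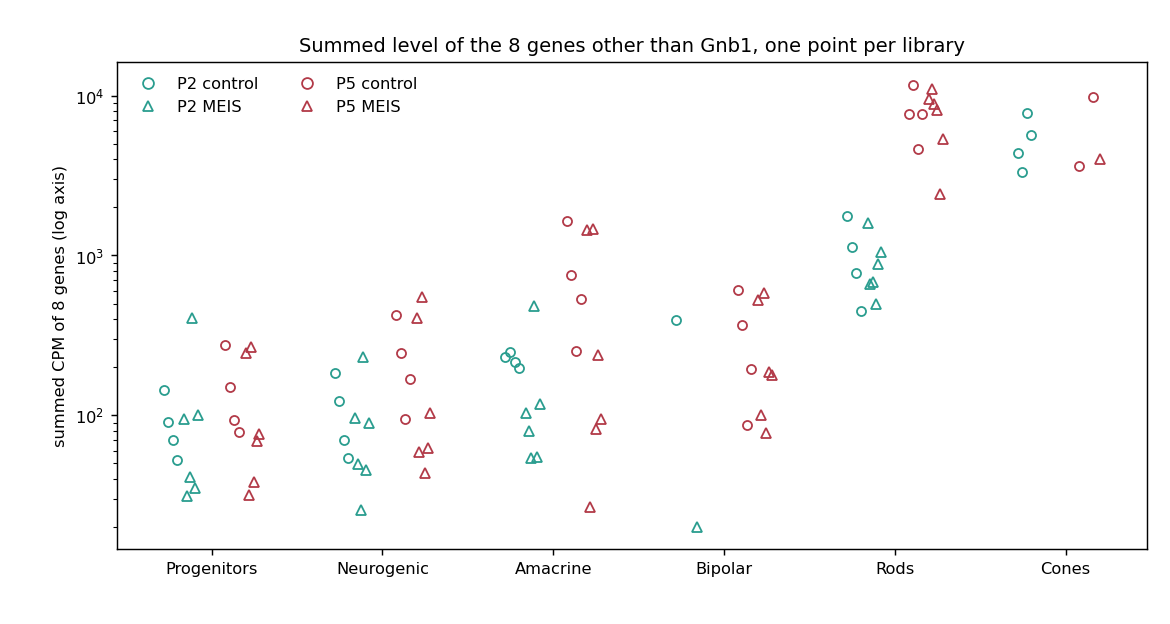
Summed level of the 8 genes other than Gnb1 (CPM, log axis) in 6 deposited cell types, with 1 point per library that held at least 20 cells of the type. Rods and cones lie above the other types in most libraries, the P2 MEIS2 library of low depth being the exception, and progenitors, neurogenic, amacrine and bipolar cells spread widely within an age.

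The mix of the members outside rods was close to that in rods in some libraries and not in others. In P5 control 2, Sag made up 51.1% of the UMIs of the 8 genes in rods, 48.1% in progenitors, 50.0% in neurogenic cells and 44.6% in amacrine cells, and Cnga1 4.28%, 3.76%, 4.05% and 3.01%. In P5 control 3, where Gngt1 was low in rods (10.7% of the 8), it was as low in progenitors (11.9%), neurogenic cells (10.9%) and amacrine cells (11.9%). In P2 control 2 the mix differed, with Gngt1 at 22.9% of the 8 in rods but 34.2%, 37.4% and 31.2% in progenitors, neurogenic and amacrine cells, and Sag at 58.3% against 45.9%, 40.0% and 52.0%. In P2 control 4, Pde6a made up 0.510% in rods and 6.46% in progenitors. In the same library Rcvrn made up 2.25% of the 8 in rods, 14.1% in amacrine cells and 28.9% in cones, and Pde6g made up 12.2%, 17.6% and 32.4%.

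Gnb1 behaved apart from the other 8. In P2 controls it stood at 182 ± 40.3 CPM in progenitors, 161 ± 35.4 in neurogenic cells and 260 ± 48.3 in amacrine cells, against 224 ± 85.9 in rods. In P5 controls these were 196 ± 13.001, 179 ± 13.3 and 311 ± 38.4, against 781 ± 224 (SD, n = 4 each). Gnb1 was thus about as high in amacrine cells as in rods at P2, and it was not called between ages in any of the 3 types, with log2 fold changes of 0.12, 0.08 and 0.18, the second of which was below 0 with thinned cells and in a fit that left out 1 library.

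Tested between ages in the other types of the controls, the only member called was Cnga1, and weakly. In neurogenic cells, the step between progenitor and postmitotic neuron, it was higher at P5 by log2 2.60 (SE 0.78, edgeR adjusted p = 0.0439, from 44 UMIs in the 4 P2 libraries to 178 in the 4 P5 libraries), 1 of 8 members tested and 6.67% of genes called higher. In progenitors it was higher by log2 2.49 (SE 0.84, adjusted p = 0.0493), 1 of 9 members and 10.6% of genes. Both calls were lost in 7 of 8 fits that left out 1 library, with adjusted p-values up to 0.124 and 0.152 over all alternatives. In amacrine cells none of 8 members was called by edgeR, where 0.351% of genes were called higher, and 2 had an unadjusted p under 0.05, Cnga1 (log2 3.63, adjusted p = 0.164) and Pde6b (log2 2.31, adjusted p = 0.459). Of all 13097 genes tested there, 1166 had an unadjusted p under 0.05. DESeq2 called Cnga1 in amacrine cells (adjusted p = 0.0237), among 192 genes in either direction, 147 of them higher. The part of free RNA in these differences was not tested.

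Cones, the photoreceptors of bright light, held several members at or above the level of rods at P2. In the 4 P2 controls (352, 89, 50 and 44 cones), Rcvrn stood at 788, 416, 1513 and 1630 CPM, over 12 times the rod level in each library. Pde6g stood at 815, 299, 1045 and 1827 CPM, and Sag at 2144, 2006, 1595 and 1398, both above rods in every library. Cnga1, whose place in cones is taken by Cnga3, was counted with 2 UMIs in P2 control 1 and none in the other 3, where a count of 0 allows up to 13.001, 20.4 and 10.4 CPM. Pde6b stood at 24.5, 8.67, 6.79 and 24.2 CPM, below rods in each library. At P5 only 2 controls had 20 cones or more, and they differed: P5 control 2, with 24 cones, held Cnga1 at 607 CPM, above the 502 of its rods, and P5 control 1, with 103 cones, at 55.3.

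No member was called by edgeR in rods with the MEIS constructs, in the fit as designed. With all MEIS libraries set against controls at P2, 0 of 9 members and 0% of 14786 genes were called by edgeR, while 1618 had an unadjusted p below 0.05. DESeq2 called 158 genes there, none of them a member. The log2 fold changes of the members ran from -1.59 to 0.29, with 7 of 9 below 0 and a median of -0.25, against -0.01 over all genes. The 3 lowest were Pde6a (-1.59, 95% interval -2.87 to -0.32, adjusted p = 0.354), Rcvrn (-1.06, interval -2.14 to 0.02, adjusted p = 0.463) and Gngt1 (-0.91, interval -1.79 to -0.04, adjusted p = 0.438). Gngt1 lay below every control in 4 of 6 MEIS libraries (80.2, 40.0, 94.3 and 136 CPM), above every control in 1 (265 CPM) and within their range in the other. The other 6 members changed sign under at least 1 alternative.

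At P5, 0 of 9 members and 0% of genes were called, and 107 of them had an unadjusted p below 0.05. DESeq2 called 1 gene there, Meis1 itself (log2 1.14, adjusted p = 0.0215). The members ran from -0.43 (Rcvrn, 95% interval -1.40 to 0.54) to 0.13, with a median of -0.17, and 6 of the 9 changed sign under at least 1 alternative. Cnga1, which did not, was at -0.39 (interval -1.32 to 0.53). Sag in the 6 P5 MEIS libraries ran from 1515 to 5621 CPM, against 3024 to 6001 in the controls, with both combination libraries below every control. Whether the rise from P2 to P5 differed between MEIS and control libraries was tested directly: 0 members and 0% of genes were called by edgeR (333 at an unadjusted p under 0.05) and 0 genes by DESeq2, and the differences ran from -0.16 to 1.29 (Pde6a, 95% interval -0.39 to 2.98). The intervals are wide, and these data do not show that the onset was alike.

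**Figure D5:**
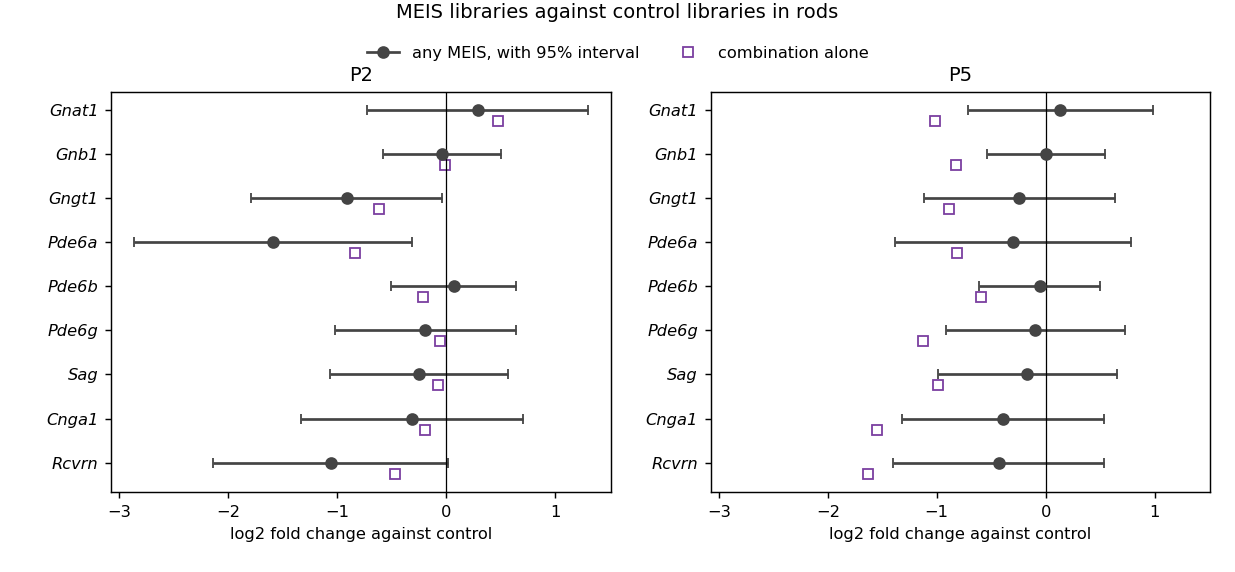
Log2 fold change of each gene in rods, any MEIS group against control (circles with the 95% interval from edgeR), and of the combination alone (squares), at P2 and at P5. At P5 the squares of all 9 genes lie below 0, between -1.63 and -0.60, and none is called.

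By construct, no member was called by edgeR in any of the 6 comparisons, each of 2 libraries against 4 controls. The one gene called among all of them, 0.00676% of those tested, was Meis1 in P2 MEIS1 (log2 2.97, adjusted p = 0.00072). The lowest median over the members was that of the P5 combination, where all 9 were below 0 (median -0.99, against -0.00 over all genes) and 3 had an unadjusted p under 0.05: Rcvrn (-1.63, 95% interval -3.05 to -0.21), Cnga1 (-1.55, interval -2.90 to -0.20) and Gnb1 (-0.83, interval -1.58 to -0.07), each with an adjusted p of 1.000. Of all 14786 genes tested, 560 had an unadjusted p under 0.05 in this comparison. Rcvrn stood at 33.7 and 212 CPM in P5 combination 1 and 2, against 216 to 656 in the controls. Without combination 1 the 3 values were -0.89, -1.09 and -0.46, and without combination 2 they were -3.33, -2.27 and -1.35. In combination 1, 42.8% of rods held a Sag UMI and 6.87% a Cnga1 UMI at 1000 UMIs per cell (95% Wilson intervals 41.1% to 44.6% and 6.003% to 7.84%, counting error only), against 60.7% and 17.8% in combination 2. That library had 2914 rods with a median of 8160 UMIs and 8.996% mitochondrial UMIs, so its rods were among the deepest, and the part of RNA quality was not tested. In P5 MEIS1 all 9 members were above 0 (median 0.40), though Sag, Cnga1 and Rcvrn were below 0 with the replicate number as a block and Gngt1 in a fit that left out 1 library, and none had an unadjusted p under 0.05. The 6 comparisons share their controls within an age.

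In P2 MEIS2, Gngt1 was at -1.90 (95% interval -3.22 to -0.57, edgeR adjusted p = 0.207) and Pde6a at -2.54 (interval -4.74 to -0.34, adjusted p = 0.292), with 8 of 9 members below 0, of which Gnat1, Gnb1 and Cnga1 changed sign under at least 1 alternative. DESeq2 called Gngt1 there (-1.96, adjusted p = 0.0179), among 490 genes in either direction. P2 MEIS2 2 is the library of low depth, and its 518 rods held 23 Gngt1 UMIs and 0 Pde6a UMIs. In P2 MEIS2 1 these genes stood at 80.2 and 1.56 CPM, against 154 to 257 and 2.27 to 17.2 in P2 controls. With the group read from the start of the barcodes, which exchanges P2 control 1 and P2 combination 2, Pde6a was called in the comparison of all MEIS libraries at P2 (-2.14, edgeR adjusted p = 0.0453). How many of all genes were called in that fit is not given here, so this call cannot be set against the general share.

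Around the members, other genes of the photoreceptor were counted in the same control fit (P5 against P2), in which 7.24% of all genes were called higher and 5.94% lower. In the fit of the MEIS libraries these shares were 11.6% and 10.5%. Of 16 other phototransduction genes, 12 rose and none fell, with a median of 2.32, against 0.0011 over all genes. The highest were Gucy2f (3.42, from 0.639 to 8.18 CPM), a guanylate cyclase, and Cngb1 (3.37, from 26.2 to 283 CPM), the partner of Cnga1 in the channel. The lowest were Abca4 (-0.59, adjusted p = 0.27), a retinoid transporter, and Guca1a (-0.01, adjusted p = 0.998), a cyclase activator. In MEIS libraries 13 of the 16 rose.

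Of 12 genes that cones use or share, 9 were tested, 2 rose and none fell, with a median of -0.44. The 2 were Grk1 (2.06), a kinase of rods and cones in the mouse, and Kcnv2 (1.57), a potassium channel subunit of both. Gnat2 (-1.32, adjusted p = 0.0767), cone transducin, and Pde6c (-0.78, adjusted p = 0.513), the cone phosphodiesterase, were the lowest. In MEIS libraries Gnat2 fell (-1.52, SE 0.39, adjusted p = 0.00929).

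Of 10 photoreceptor transcription factors, 4 rose and 2 fell. Esrrb (2.89, from 0.139 to 1.505 CPM) and Nr2e3 (1.67, from 420 to 1398 CPM), the nuclear receptor that acts with NRL in rods, were the highest. The P2 mean of Esrrb lay below the 0.401 to 0.549 CPM that a count of 0 allows in P2 controls 2 to 4. Rorb (-1.21, from 3708 to 1703 CPM) and Prdm1 (-0.86, from 539 to 317 CPM), which act early in the photoreceptor lineage, were the lowest. Nrl, Crx and Otx2 are named outside the rule because the motifs above are theirs. They were at 0.72 (adjusted p = 0.0222), 0.15 (adjusted p = 0.66) and -0.66 (adjusted p = 0.187). In MEIS libraries Nrl rose (0.68, edgeR adjusted p = 0.00571), Otx2 fell (-0.83, adjusted p = 0.03) and Crx was at -0.07 (adjusted p = 0.787). Of the 12 genes used to sort rods, 11 rose in controls and 12 in MEIS libraries, among them Cabp4 (3.22), a calcium-binding protein of the photoreceptor synapse.

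The genes most like the 8 members in their pattern over 11 means of cell type and age in controls were Rdh12 (Pearson's r = 0.992), a retinol dehydrogenase of photoreceptors, Gm44196 (0.985), Synpo2 (0.982), Kif3b (0.982) and Rp1 (0.982), a microtubule protein of the outer segment. They were ranked among 3889 genes with at least 50 CPM in P5 control rods, on log2(CPM + 1). The means share libraries, so the coefficients are a description. Among the members themselves r ran from 0.594 (Gnb1) and 0.632 (Gnat1) to 0.990 (Sag), with Cnga1 at 0.773. The reference was the mean of the 8, which contains each member but Gnb1. Their r is thus partly fixed in advance, and that of Gnb1 is not on like terms.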

How the data were processed

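Per the labels' protocols, explants were dissociated with papain and libraries made with 10x 3′ v3.1 chemistry. The submitters' processing notes name Cell Ranger, mm10 and Seurat 5, the design text adds a GFP locus to the genome, and counting settings are not given in the sources used here. The authors deposited raw counts (UMIs) of 23260 genes in 79009 cells, whole numbers whose sum equals the deposited count in every cell, and a table with each cell's library, type and percent of mitochondrial UMIs. Doublet removal is not given there. Scrublet marked 0.016% to 11.2% of a library and only 1 cell in 2 libraries, where it did not work, so cells were kept.

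Counts were summed per library and deposited type with at least 20 cells. Sums were fitted over 8 groups with edgeR 4.0.16 (filterByExpr, TMM, quasi-likelihood test; R 4.3.3), and adjusted p-values cover all genes tested. DESeq2 1.42.0, no TMM, no filter, a replicate block, only the groups compared, groups from barcode starts, no doublets, thinning to 1000 UMIs, at least 50 cells, and leaving out libraries were alternatives. Scripts were tested on simulated data. The 95% intervals of shares are Wilson's, and a count of 0 allows 3 counts. Gene positions are from GENCODE (GRCm38).

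The rule for named genes was all 9 members and of each list at most the 2 highest and 2 lowest. Members that differed most by treatment were named after their values were seen. The members and lists were chosen with earlier results of these data known. Values of 2 genes of the lists are not reported here.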

Additional observations from a re-analysis of the deposited data

Results flagged for a closer look

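In P5 control 1 the summed level of the 8 members other than Gnb1 in amacrine cells was 21.44% of that in its rods, against 5.38% to 6.93% in the other 3 P5 controls. The gap to the nearest of them was 0.903 of the whole range, above Dixon's 95% limit for 4 samples. In neurogenic cells of the same library the level was 5.506% of that in rods, against 2.02% to 2.20%, with a gap of 0.947 of the range. Its rods had a median of 10.1% mitochondrial UMIs, the highest of the 4. Of 24 groups checked, 2 met this limit, and chance alone gives about 1 in 20.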

How the results depend on the processing

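Of 2934 values under alternatives, 2722 were labelled the same. They kept their direction and their side of the threshold, or moved by less than the spread. Counts of genes or members called were labelled the same if they stayed within a fixed fold of the main count, so some of these counts moved. Member fits changed sign in 148 of 2401 cases, none of them a called value, and none in rods between ages. Genes called from P2 to P5 numbered 1949 in controls and 3273 in MEIS libraries, and with cells thinned to 1000 UMIs 1218 and 1867. Without the P5 libraries numbered 1, an alternative chosen after seeing the data, MEIS libraries gave 1965. Leaving out 1 library gave 1124 (without P5 control 2) to 2315 in controls. Whether the replicate numbers pair the libraries could not be told. Same-numbered deviations of P2 and P5 controls correlated at 0.318, 0.228, 0.0744 and 0.0460, all above 0. Not each P2 library did so best with its own number, and MEIS libraries were not part of this check. Under the replicate block 8 members were called in controls and 9 in MEIS libraries, and 0 in progenitors (Cnga1 edgeR adjusted p = 0.0669). The shares of all genes called in these blocked fits are not given here. Members called in treatment comparisons went from 0 to 1 in P2 MEIS2 with DESeq2 and in all MEIS libraries at P2 with groups from barcode starts. In amacrine cells 1 was called with DESeq2, among 192 genes. The 1 member called in neurogenic cells became 0 without doublets and with thinning, and 0 to 1 leaving out 1 library. The 1 in progenitors became 0 without TMM, with thinning and without the P5 libraries numbered 1, and 0 to 1 leaving out 1 library. The P2 percent of P5 for Gngt1 ran from 10.3 to 16.9 leaving out 1 library, the highest without P5 control 2. The level outside rods at P2 moved with depth per cell. As a percent of rods, it was 8.05 in amacrine cells of the lowest tertile of UMIs and 47.95 of the highest, 5.76 and 16.9 in progenitors (5.68 without doublets), and 5.25 and 21.8 in neurogenic cells (6.62 without doublets). The cause was not tested. Depth limits Gnat1 and Pde6a, each under 3000 UMIs in all cells.

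The values that changed sign are log2 fold changes, and none was called on either side. All MEIS libraries at P2 gave without TMM Gnb1 0.065, under the replicate block Gnat1 -0.14 and Pde6b -0.24, with groups from barcode starts Gnb1 0.22, Pde6g 0.51 and Sag 0.35. The same comparison gave, with thinned cells Gnat1 -1.08, without P2 MEIS2 2 Pde6b -0.023. With 1 library left out, all MEIS libraries at P2 gave Gnb1 -0.22 to 0.20, Pde6g -0.52 to 0.39, Sag -0.54 to 0.29, Cnga1 -0.77 to 0.27 and Pde6b -0.13 to 0.42. All MEIS libraries at P5 gave under the replicate block Gnat1 -0.30 and Gnb1 -0.25, without the P5 libraries numbered 1 Gngt1 0.11, Pde6b 0.043 and Pde6g 0.10. Without 1 library, all MEIS libraries at P5 gave Pde6b -0.26 to 0.095, Gngt1 -0.57 to 0.19, Pde6g -0.42 to 0.17, Sag -0.30 to 0.041, Gnat1 -0.17 to 0.65 and Gnb1 -0.18 to 0.14. The difference of the MEIS effects between ages gave without TMM Gnb1 -0.061 and Sag -0.0041, under the replicate block Pde6g -0.012 and Sag -0.10, with groups from barcode starts Gnb1 -0.22, Pde6g -0.60, Sag -0.52 and Cnga1 0.15. The same comparison gave, with thinned cells Gnat1 1.48, without P2 MEIS2 2 Gnat1 0.018 and Sag -0.024, without the P5 libraries numbered 1 Cnga1 0.15. With 1 library left out, the difference of the MEIS effects between ages gave Gnb1 -0.19 to 0.23, Pde6g -0.49 to 0.42, Sag -0.45 to 0.37, Cnga1 -0.67 to 0.37, Gnat1 -0.63 to 0.37 and Pde6b -0.47 to 0.081. Neurogenic cells gave with thinned cells Gnb1 -0.052. Without 1 library, neurogenic cells gave Gnb1 -0.022 to 0.16 and Pde6a -1.56 to 0.64. Amacrine cells gave without TMM Pde6a 0.024, under the replicate block Pde6a 0.90. With 1 library left out, amacrine cells gave Pde6a -0.64 to 1.55. P2 MEIS1 gave under the replicate block Gnb1 -0.24 and Sag -0.28, with thinned cells Gnat1 -1.80 and Gnb1 -0.056. Without 1 library, P2 MEIS1 gave Cnga1 -1.37 to 0.22, Gnb1 -0.43 to 0.32, Sag -0.63 to 0.62, Pde6b -0.15 to 0.71, Pde6g -0.57 to 0.94 and Gngt1 -0.75 to 0.059. P5 MEIS1 gave under the replicate block Sag -0.19, Cnga1 -0.16 and Rcvrn -0.0068. With 1 library left out, P5 MEIS1 gave Gngt1 -0.0045 to 0.89. P2 MEIS2 gave under the replicate block Pde6b -0.25, with groups from barcode starts Gnb1 0.033. The same comparison gave, with thinned cells Pde6b -0.0036, without P2 MEIS2 2 Pde6b -0.18. Without 1 library, P2 MEIS2 gave Gnat1 -0.67 to 1.16, Gnb1 -0.26 to 0.10, Cnga1 -0.67 to 0.19 and Pde6b -0.18 to 0.41. P5 MEIS2 gave without TMM Rcvrn 0.013, under the replicate block Pde6b -0.17, Pde6g -0.017, Sag -0.40 and Cnga1 -0.45. The same comparison gave, with thinned cells Cnga1 -0.11, without the P5 libraries numbered 1 Sag -0.058 and Cnga1 -0.12. With 1 library left out, P5 MEIS2 gave Gngt1 -0.57 to 0.16, Rcvrn -0.21 to 0.40, Pde6b -0.079 to 0.27, Cnga1 -0.24 to 0.21 and Sag -0.065 to 0.35. P2 combination gave without TMM Gnb1 0.094, Pde6g 0.043 and Sag 0.014, with groups from barcode starts Gnb1 0.44, Pde6b 0.71, Pde6g 1.08, Sag 0.92 and Rcvrn 0.21, with thinned cells Gnat1 -0.39, Pde6b 0.013, Pde6g 0.028 and Cnga1 0.28. Without 1 library, P2 combination gave Gnb1 -0.16 to 0.22, Pde6b -0.40 to 0.13, Pde6g -0.24 to 0.53, Sag -0.38 to 0.46, Cnga1 -1.42 to 0.54, Pde6a -1.94 to 0.0013 and Rcvrn -1.35 to 0.12. The causes were not tested.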
